A study of Mus musculus with 2 samples.

Results

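Macrophages of MC38 tumours that carried RNA of Trem2, Fcrls or Stab1 were compared with macrophages that carried RNA of Il1b, Ly6i or Clec4n in its place. Members were cell barcodes with 300 or more detected genes, under 10% mitochondrial UMIs (unique molecular identifiers, each a counted RNA molecule) and 5 or more UMIs of C1qa, C1qb and C1qc together. They had 0 UMIs of Cd3d, Cd3e, Cd3g, Cd8a, Xcr1, Siglech, Ccr7, Mki67 and Top2a and fewer than 5 of S100a8 and S100a9. Of the 1297 barcodes that met these conditions, called C1q barcodes here, the 464 members had 1 or more UMIs of Trem2, Fcrls and Stab1 together and 0 of Il1b, Ly6i and Clec4n. The reverse gate, with 1 or more UMIs of Il1b, Ly6i and Clec4n and 0 of Trem2, Fcrls and Stab1, held 278 barcodes. Both were drawn from 5225 barcodes that passed the gene and mitochondrial filters, out of 5686 deposited.

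MC38 is a mouse colon carcinoma cell line that is grown as a tumour in mice. Immune cells were taken from such tumours on day 21 by flow sorting, and their polyadenylated RNA was read with the droplet-based 10x Genomics 3′ kit, version 3.1. The series has 1 group with 2 libraries, replicate 1 and replicate 2, and the labels name no treatment, genotype, host strain or age. They do not say that the replicates came from separate animals, but sex-linked RNA differed between them. Over all barcodes that passed the filters, Xist, an RNA of female cells, had 1794 UMIs in replicate 1 and 0 in replicate 2. The Y-linked gene Ddx3y had 0 and 200 UMIs. The libraries thus held cells of different sex and did not come from the same animal. The p-values measure only the spread between sums of barcodes in these 2 libraries. The libraries shared 0 cell barcodes. Not all barcodes that passed the filters had UMIs of the leukocyte genes Ptprc, Tyrobp and Fcer1g. In replicate 1, 698 of 2388 had none, and in replicate 2, 938 of 2837.

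C1q, the recognition part of the classical complement pathway, is made mostly by macrophages in tissues, and tumour macrophages that express it also tend to express Apoe. Trem2 is a surface receptor for lipids and dying cells, Stab1 is a scavenger receptor of macrophages that turn over extracellular material, and Fcrls is an Fc receptor-like protein best known from mouse microglia. Il1b encodes an inflammatory cytokine, Clec4n encodes Dectin-2, a lectin receptor for fungal sugars, and Ly6i is a surface protein of the Ly6 family.

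The libraries held 5688000 and 5862342 UMIs, with medians of 1309 and 1375 per barcode. Members of replicate 1 totalled 787244 UMIs in 432 barcodes, whereas those of replicate 2 totalled 35986 UMIs in 32 barcodes. The reverse gate was unequal the other way, with 45627 UMIs in 32 barcodes of replicate 1 and 359880 UMIs in 246 barcodes of replicate 2. One UMI was therefore worth 1.27 CPM (UMI counts of the summed barcodes scaled to a common total of 1000000) in members of replicate 1 and 27.8 CPM in those of replicate 2, against 21.9 and 2.78 CPM in the reverse gate. Each comparison within a library thus rested on 1 small set of 32 barcodes, and all intervals given cover counting error only.

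The share of members differed between the replicates. Members made up 54.1% of the C1q barcodes of replicate 1 (exact binomial 95% interval 50.5 to 57.6%) and 6.43% of those of replicate 2 (4.44 to 8.95%). The reverse gate made up 4.01% (2.76 to 5.61%) and 49.4% (44.9 to 53.9%) of the same barcodes. Over the libraries the share averaged 30.2% ± 33.7 for members and 26.7% ± 32.1 for the reverse gate (SD, n = 2). A further 97 and 83 barcodes had UMIs of both gene sets, and 238 and 137 had UMIs of neither. The gates were set by measured UMIs, so these shares are a description.

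**Figure D1:**
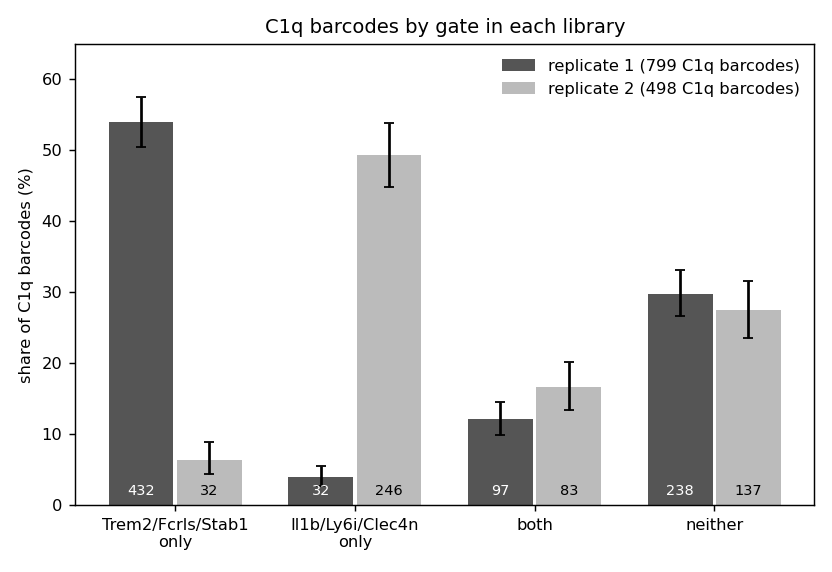
Share of C1q barcodes (%) in each of the 4 gates, with members at the left and the reverse gate next to them, in replicate 1 (dark bars) and replicate 2 (light bars). Numbers in the bars are barcodes and error bars are exact binomial 95% intervals. Members made up 54.1% of replicate 1 and 6.43% of replicate 2, and the reverse gate 4.01% and 49.4%.

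Trem2 was the gate gene found in most members of replicate 1. It had a UMI in 72.7% of members of replicate 1 and 50% of those of replicate 2, at 794 and 584 CPM. Stab1 had a UMI in 46.5% and 50% of members, at 418 and 556 CPM. Fcrls was rarer, with a UMI in 36.8% and 21.9% of members, at 306 and 222 CPM. In barcodes with no UMI of the leukocyte genes Ptprc, Tyrobp and Fcer1g, which should lack macrophage RNA, Trem2 was found in 2.29% and 0.107%, Stab1 in 2.72% and 3.20% and Fcrls in 1.15% and in 0 of 938 barcodes (upper exact 95% limit 0.392%). Median depths were 1434 and 972.5 UMIs in members and 1778.5 and 2074 UMIs in those barcodes. On the mm10 genome Trem2 lies at chr17:48346401-48354147, Stab1 at chr14:31139013-31168641 and Fcrls at chr3:87250758-87263738.

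Most members carried 1 of the 3 genes alone. In replicate 1, 145 members had Trem2 alone, 64 had Stab1 alone and 38 had Fcrls alone, whereas 57, or 13.2%, had all 3. In replicate 2, 12 had Trem2 alone, 11 Stab1 alone, 3 Fcrls alone and 1 had all 3. The median depth of the combinations differed, from 951.5 UMIs with Stab1 alone to 2246 UMIs with all 3 in replicate 1, and its part in the combinations was not tested.

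Levels of other genes differed among these combinations in replicate 1, the only library with 20 or more barcodes in any of them. Apoe, the main lipid carrier protein of macrophages, had 27183 CPM in members with all 3 genes, 19190 CPM with Trem2 alone, 15510 CPM with Stab1 alone and 13490 CPM with Fcrls alone. The MHC class II gene H2-Ab1 was lowest by value where Apoe was highest, with 1251 CPM with all 3 genes (exact Poisson 95% interval 1085 to 1435), 1656 CPM with Stab1 alone (1383 to 1968), 3159 CPM with Fcrls alone (2728 to 3638) and 3300 CPM with Trem2 alone (3073 to 3539). The lysosomal protease gene Ctsd stood at 1778 CPM with all 3 genes and at 703 CPM with Trem2 alone. Mrc1, the mannose receptor gene, was lowest with Trem2 alone at 105 CPM and stood at 308 CPM with Stab1 alone. These are values of 1 library and carry no test.

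Each gate gene was also read in gates drawn without it. With Trem2 left out of the rule, it stood at 660 CPM in members and 421 CPM in the reverse gate of replicate 1, and at 185 and 92.8 CPM in replicate 2, where the members' value rested on 4 UMIs. Stab1 stood at 340 CPM in members and 153 CPM in the reverse gate of replicate 1 and at 322 and 69.1 CPM in replicate 2, with 7 UMIs in these members. Fcrls stood at 264 CPM in members and 21.5 CPM in the reverse gate of replicate 1, and at 149 and 19.1 CPM in replicate 2, from 192 and 1 UMIs and from 5 and 7 UMIs. All 3 stood at higher values in barcodes chosen by the other 2 in both libraries. For Trem2 in replicate 2 the exact Poisson 95% intervals overlapped, at 50.5 to 475 CPM and 66.0 to 127 CPM. Of the reverse gate's own genes, Il1b stood at 438 CPM in members and 868 CPM in the reverse gate of replicate 2. Ly6i stood at 189 and 304 CPM there, with overlapping intervals (81.7 to 373 and 248 to 369 CPM). Clec4n, at 533 and 496 CPM, was not lower in members. In replicate 1 members drawn without Il1b, Ly6i or Clec4n held 33, 5 and 80 UMIs of the gene left out (39.4, 6.27 and 83.7 CPM), whereas the reverse gates held 0 UMIs in 24, 26 and 14 barcodes, with upper exact Poisson 95% limits of 109, 111 and 154 CPM. The members' values lay under these limits, so no difference was detectable there.

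The label was checked against macrophage markers. Csf1r, the receptor for the macrophage growth factor, stood at 419 and 333 CPM in members of replicates 1 and 2 and 307 and 511 CPM in the reverse gate. Adgre1, which encodes the F4/80 antigen, stood at 175 and 250 CPM in members and 87.7 and 242 CPM in the reverse gate. In the barcodes without leukocyte genes Csf1r stood at 12.02 and 11.2 CPM, far below either gate. Neither gene passed the test between the gates (log2 differences 0.03 and 0.54, adjusted p 0.999 and 0.888, edgeR's quasi-likelihood test with Benjamini-Hochberg adjustment).

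Markers of other cell types were summed in the same barcodes. Over 6 markers of type 2 dendritic cells the summed level was 182 and 584 CPM in members of replicates 1 and 2 and 833 and 503 CPM in the reverse gate. Without Napsa, a tested gene, it was 92.7 and 584 CPM in members and 526 and 370 CPM in the reverse gate. Over 8 monocyte markers it was 348 and 1362 CPM in members and 701 and 1803 CPM in the reverse gate, but without Ccr2, a tested gene, the other 7 summed to 215.9 and 1112 CPM in members and 219 and 1495 CPM in the reverse gate, so the gap in replicate 1 rested on Ccr2. Over 7 T and NK cell markers it was 123 and 195 CPM in members and 175 and 236 CPM in the reverse gate, and over 5 fibroblast markers 113 and 83.4 CPM against 43.8 and 100.03 CPM. Of 5 epithelial markers 4 were at 0 in members of replicate 1 and all 5 in members of replicate 2, and all 4 mast cell markers were at 0 in both gates of both libraries. Barcodes with 2 or more Cd3 UMIs, which are T cells by that gene, held 2691 and 1675 CPM of C1qa, against 4371 and 3029 CPM in members. Whether free RNA or doublets gave the counts in the Cd3 barcodes was not tested.

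Between the gates, 8 genes were higher and 11 lower in members out of 3125 genes tested, which is 0.256% and 0.352% of the genes, or 0.608% together, and 188 genes had an unadjusted p under 0.05. Counts were summed per library and gate over all 4 gates, and edgeR's quasi-likelihood test was run with the library as a block at an adjusted p under 0.05. The 8 higher genes were Apoe, Ctsb, Ctsd, Pf4, Cd63, Fabp5, Ccl7 and Timp2, and the 11 lower genes were Cxcl9, H2-Ab1, H2-Eb1, Cd74, H2-Aa, Bcl2a1d, Napsa, Ccr2, Ifitm1, S100a11 and Ly6a. Genes named in the rule were not tested. Genes expressed together with the gate genes can differ through the gate itself. Without the library block edgeR called 0 genes, with 103 at an unadjusted p under 0.05, and without a filter on low counts it called 1 gene, none of these 19. DESeq2 called 7 genes, Apoe, Ctsb, Pf4, Cxcl9, H2-Ab1, H2-Eb1 and Cd74, all of them among the 19. All 7 were also called with only the 2 gates in the edgeR fit and with dendritic marker barcodes left out, and each passed in 8 to 10 of 12 alternatives. A gate at 2 UMIs kept Apoe and Pf4 of the 7, and thinning before gating ended the calls of Pf4 (adjusted p = 0.0763, edgeR) and H2-Eb1 (adjusted p = 0.123, edgeR). The other 12 genes passed in 2 to 7 alternatives.

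**Figure D2:**
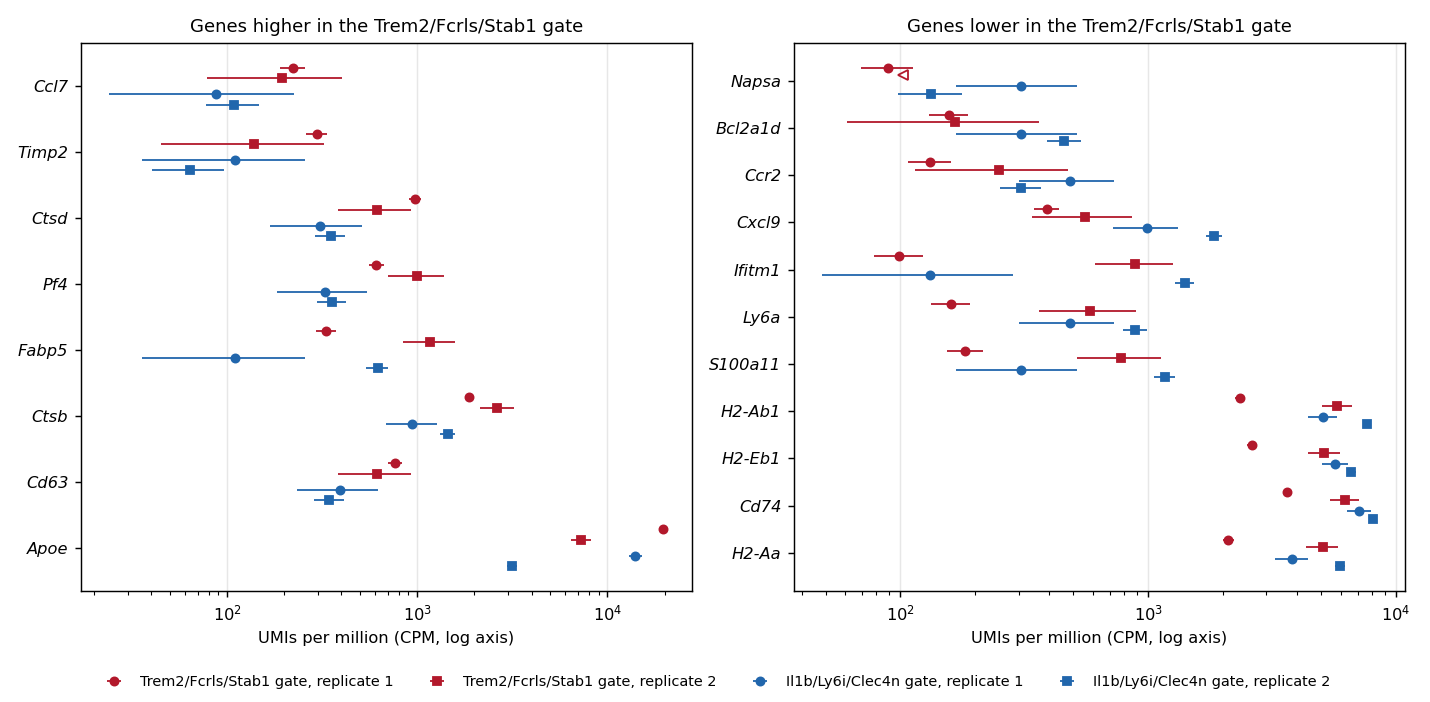
Levels in CPM (log axis) of the 8 genes higher (left panel) and the 11 genes lower (right panel) in members, with members in red above the reverse gate in blue, replicate 1 as circles and replicate 2 as squares. Lines are exact Poisson 95% intervals, and the open triangle is the upper limit for Napsa, which had 0 UMIs in members of replicate 2. Pf4 stood at 608 and 1000.4 CPM in members and 329 and 356 CPM in the reverse gate.

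Apoe was the most abundant of the genes that were higher. As a marker gene of the label, it was chosen with these data known, so its p-value is no independent support. It had 19561 CPM in members of replicate 1 and 7281 CPM in those of replicate 2, against 14071 and 3154 CPM in the reverse gate. Members were above the reverse gate within each library, by 0.51 and 1.10 on the log2 scale, but the 2 groups overlapped because replicate 1 was the higher library in both gates. The fitted log2 difference was 0.77 ± 0.13 (SE, adjusted p = 0.000971, edgeR). Apoe had a UMI in 99.5% and 90.6% of members, in 93.8% and 72.4% of the reverse gate and in 31.4% and 9.81% of barcodes without leukocyte genes. With every barcode thinned to 800 UMIs these shares were 98.6% and 87.0% in members, 87.5% and 60.0% in the reverse gate and 14.1% and 4.20% in the barcodes without leukocyte genes.

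Genes of the lysosome, where cathepsin proteases break down ingested protein, held 2 of the higher genes. Ctsb, encoding cathepsin B, had 1876 and 2640 CPM in members and 942 and 1448 CPM in the reverse gate. Both member values were above both values of the reverse gate, with a fitted log2 difference of 0.90 ± 0.15 (SE, adjusted p = 0.000971, edgeR). Ctsd, encoding cathepsin D, had 972 and 611 CPM in members against 307 and 350 CPM in the reverse gate, again without overlap, with a log2 difference of 1.24 ± 0.23 (adjusted p = 0.00252, edgeR). The Ctsd call did not hold when barcodes with a dendritic marker UMI were left out (log2 difference 0.80, adjusted p = 0.266, edgeR). Of 22 lysosomal genes tested 2 were higher, 0 lower and 20 did not pass, with a median log2 difference of 0.21 against -0.01 over all genes. Lyz2, the lysozyme gene of macrophages, had 7773 and 55.6 CPM in members against 5282 and 13.9 CPM in the reverse gate and did not pass (adjusted p = 0.162, edgeR).

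Among 20 genes of a lipid-associated macrophage list, not all of which handle lipids, 3 were higher, Apoe with Cd63 and Fabp5. Of the others, 0 were lower and 17 did not pass, and the median log2 difference of the list was 0.32. Cd63, a tetraspanin of lysosomal membranes, had 765 and 611 CPM in members and 395 and 345 CPM in the reverse gate (log2 difference 0.87 ± 0.21, adjusted p = 0.0320, edgeR). Fabp5, a fatty acid binding protein, had 332 and 1167 CPM in members and 110 and 620 CPM in the reverse gate, where replicate 2 was the higher library in both gates, so the groups overlapped (log2 difference 0.93 ± 0.22, adjusted p = 0.0320, edgeR). The reverse gate of replicate 1 held only 5 Fabp5 UMIs. Both calls were lost in DESeq2 (adjusted p 0.767 for Cd63 and 0.498 for Fabp5).

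Pf4, a chemokine known from platelets and also made by resident tissue macrophages, stood out among 10 genes of a resident macrophage list. It had 608 and 1000.4 CPM in members and 329 and 356 CPM in the reverse gate. Both member values lay above both others, and the log2 difference was 1.22 ± 0.21 (adjusted p = 0.000971, edgeR). The other 9 did not pass, with a median log2 difference of 0.75 over the list. The fitted difference was positive for all 10, against 1534 of all 3125 genes. Within the libraries 8 were positive in both, against 815 of all genes, and 1 was negative in both, against 789. A gene with 0 UMIs in the reverse gate of replicate 1, such as Folr2, could not come out negative there. Folr2, a folate receptor of resident-type macrophages, had 54 and 3 UMIs in members and 0 and 5 UMIs in the reverse gate, and with 0 of 45627 UMIs the floor of 3 counts in the reverse gate of replicate 1 was 65.8 CPM, next to 68.6 CPM in members. Selenop, a selenium carrier, had 577 and 556 CPM in members and 373 and 428 CPM in the reverse gate (adjusted p = 0.318, edgeR). Mrc1 had 212 and 500.2 CPM in members and 219 and 161 CPM in the reverse gate (adjusted p = 0.498, edgeR), so its libraries did not point the same way.

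A pair of secreted factors completed the higher genes, both from few UMIs. Ccl7, a chemokine that attracts monocytes, had 221 and 195 CPM in members and 87.7 and 108 CPM in the reverse gate, from 174 and 7 UMIs and from 4 and 39 UMIs (log2 difference 1.37 ± 0.32, adjusted p = 0.0313, edgeR). Timp2, an inhibitor of metalloproteinases, had 296 and 139 CPM in members and 110 and 63.9 CPM in the reverse gate, from 233 and 5 UMIs and from 5 and 23 UMIs (log2 difference 1.35 ± 0.33, adjusted p = 0.0486, edgeR). Neither gene overlapped between the gates. Over all tested genes, 10.5% had both member values above both values of the reverse gate and 14.3% had both below. Timp2 reached 526 and 400.3 CPM in the barcodes without leukocyte genes, above its level in either gate, and the part of such RNA in its difference was not tested. Both calls were lost with only the 2 gates in the fit (adjusted p 0.738 for Ccl7 and 0.401 for Timp2, edgeR).

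**Figure D3:**
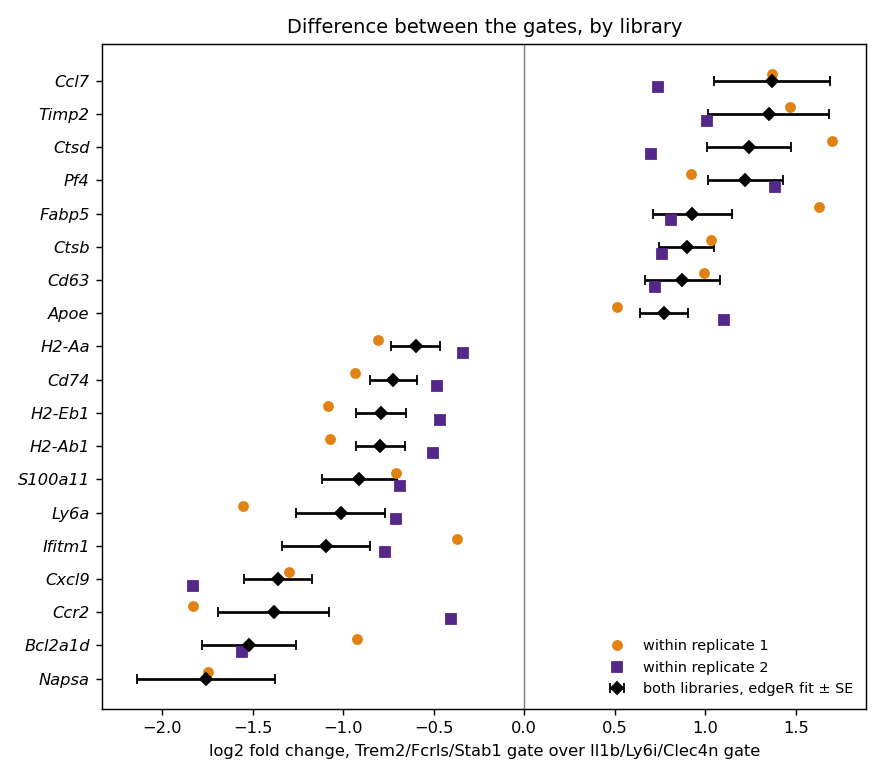
Log2 fold change of members over the reverse gate for the 19 called genes, fitted over both libraries (black diamonds, bars are ± 1 SE) and read within replicate 1 (orange circles) and replicate 2 (purple squares). Every value shown lies on the same side of 0 as its fit, and Napsa has no point for replicate 2 because its members held 0 UMIs. For Ifitm1 both within-library values, -0.37 and -0.77, lie closer to 0 than the fitted -1.10. The same holds for S100a11, with -0.71 and -0.69 against the fitted -0.91.

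Cxcl9, a chemokine induced by interferon gamma that draws T cells, was the gene with the smallest adjusted p and was lower in members. It had 390 and 556 CPM in members and 986 and 1842 CPM in the reverse gate. The groups did not overlap, and the log2 difference was -1.36 ± 0.19 (adjusted p = 6.27e-05, edgeR). The libraries differed in how this came about. In replicate 2 a Cxcl9 UMI was found in 28.1% of members and 74.0% of the reverse gate (13.04% and 63.3% after thinning to 800 UMIs). In replicate 1 it was found in 23.1% and 21.9% (17.5% and 16.7% after thinning), so the lower level there came with fewer UMIs per positive barcode, and the reverse gate's 45 UMIs lay in 7 barcodes. Leaving out the single barcode with most Cxcl9 UMIs in each gate left 348 CPM in members and 855 CPM in the reverse gate of replicate 1. Barcodes without leukocyte genes had a Cxcl9 UMI in 3.58% and 5.65%.

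Among 14 chemokine genes Ccl7 was higher, Cxcl9 was lower and 12 did not pass, with a median log2 difference of -0.36. Cxcl2, which attracts neutrophils, had 103 and 167 CPM in members and 197 and 442 CPM in the reverse gate and missed the threshold (log2 difference -1.08 ± 0.27, adjusted p = 0.0515, edgeR).

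MHC class II genes, whose products present peptides to CD4 T cells, had more lower genes than any other list, with 4 of 8 tested genes lower in members, 0 higher and 4 that did not pass. H2-Ab1 had 2344 and 5780 CPM in members and 5063 and 7614 CPM in the reverse gate (log2 difference -0.79 ± 0.14, adjusted p = 0.000971, edgeR). H2-Eb1 had 2624 and 5141 CPM in members and 5698 and 6616 CPM in the reverse gate (log2 difference -0.79 ± 0.14, adjusted p = 0.000971, edgeR). Cd74, the invariant chain that guides class II molecules, had 3627 and 6225 CPM in members and 7101 and 8086 CPM in the reverse gate (log2 difference -0.72 ± 0.13, adjusted p = 0.00114, edgeR). Members were below the reverse gate in each library for all 3 genes, and H2-Ab1 alone overlapped, since its members of replicate 2 lay above the reverse gate of replicate 1. H2-Aa had 2109 and 5058 CPM in members and 3792 and 5946 CPM in the reverse gate and overlapped likewise (log2 difference -0.60 ± 0.14, adjusted p = 0.0250, edgeR). The list's median log2 difference was -0.62, and 7 of its 8 genes were lower in both libraries by value, against 789 of all 3125 genes. Over all genes 51.3% differed in the same direction in both libraries.

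Type 2 dendritic cells also express class II genes, so the same genes were read without barcodes that held a UMI of their markers. This left 18 members in replicate 2 and 18 reverse gate barcodes in replicate 1. A shallow barcode with 0 marker UMIs can still be such a cell, so the part of these cells in the differences was not tested. A UMI of any of the 6 dendritic markers was present in 21.99% and 43.8% of members and in 43.8% and 44.7% of the reverse gate. With those barcodes left out, the log2 difference was -0.77 for H2-Ab1, -0.95 for H2-Eb1 and -0.79 for Cd74 (adjusted p 0.000203, 5.29e-07 and 5.67e-05, edgeR), and -0.50 for H2-Aa, which no longer passed (adjusted p = 0.218, edgeR). In replicate 1 a H2-Ab1 UMI was found in 71.5% of members and 96.9% of the reverse gate, and in replicate 2 in 90.6% and 99.2%, against 17.6% and 18.9% of barcodes without leukocyte genes. After thinning the shares were 61.7% and 100% in replicate 1 and 100% and 98.6% in replicate 2, so after thinning the share was lower by value in members of replicate 1 only. None of 10 MHC class I genes passed in edgeR, and the median log2 difference was -0.15. Of the 10 differences 8 were negative, against 1591 of all 3125 genes, and 5 genes were lower in both libraries, against 789.

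Other lower genes were Ccr2, Ly6a and S100a11. Ccr2, the receptor that brings monocytes from the blood, had 132 and 250.1 CPM in members and 482 and 308 CPM in the reverse gate (log2 difference -1.38 ± 0.31, adjusted p = 0.0211, edgeR). Ly6a, which encodes Sca-1 and is induced by interferon, had 160.1 and 584 CPM in members and 482 and 889 CPM in the reverse gate (log2 difference -1.01 ± 0.24, adjusted p = 0.0385, edgeR). S100a11, a calcium-binding protein, had 183 and 778 CPM in members and 307 and 1167 CPM in the reverse gate (log2 difference -0.91 ± 0.21, adjusted p = 0.0274, edgeR). Its within-library differences, -0.71 and -0.69, were both smaller in size than the fitted value, and it was not called with only the 2 gates in the fit. Ccr2 did not overlap between the gates, whereas Ly6a and S100a11 did, being higher in replicate 2 in both gates. All 3 calls were lost with dendritic marker barcodes left out (adjusted p 0.813 for Ccr2, 0.496 for Ly6a and 0.726 for S100a11, edgeR). They passed in 5, 2 and 4 of 12 alternatives in that order.

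Ifitm1, an interferon-induced membrane protein, had 99.1 and 889 CPM in members and 132 and 1409 CPM in the reverse gate. Its within-library log2 differences were -0.37 and -0.77, both smaller than the fitted -1.10 ± 0.24 (adjusted p = 0.0211, edgeR), because the other 2 gates also enter the library term, and with only the 2 gates in the fit the difference was -0.64 (adjusted p = 0.895, edgeR). Napsa, an aspartic protease expressed in dendritic cells and one of the 6 dendritic markers, had 70 and 0 UMIs in members and 14 and 48 UMIs in the reverse gate, which gave 88.9 CPM in members of replicate 1 and 307 and 133 CPM in the reverse gate (adjusted p = 0.0176, edgeR). The floor of 3 counts in members of replicate 2 was 83.4 CPM. Bcl2a1d, a survival gene of the Bcl2 family, had 158 and 167 CPM in members and 307 and 458 CPM in the reverse gate (log2 difference -1.52 ± 0.26, adjusted p = 0.000971, edgeR), and it was not called with dendritic marker barcodes left out (adjusted p = 0.496, edgeR). It has near-identical paralogs among which reads can be split, so its value is uncertain.

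**Figure D4:**
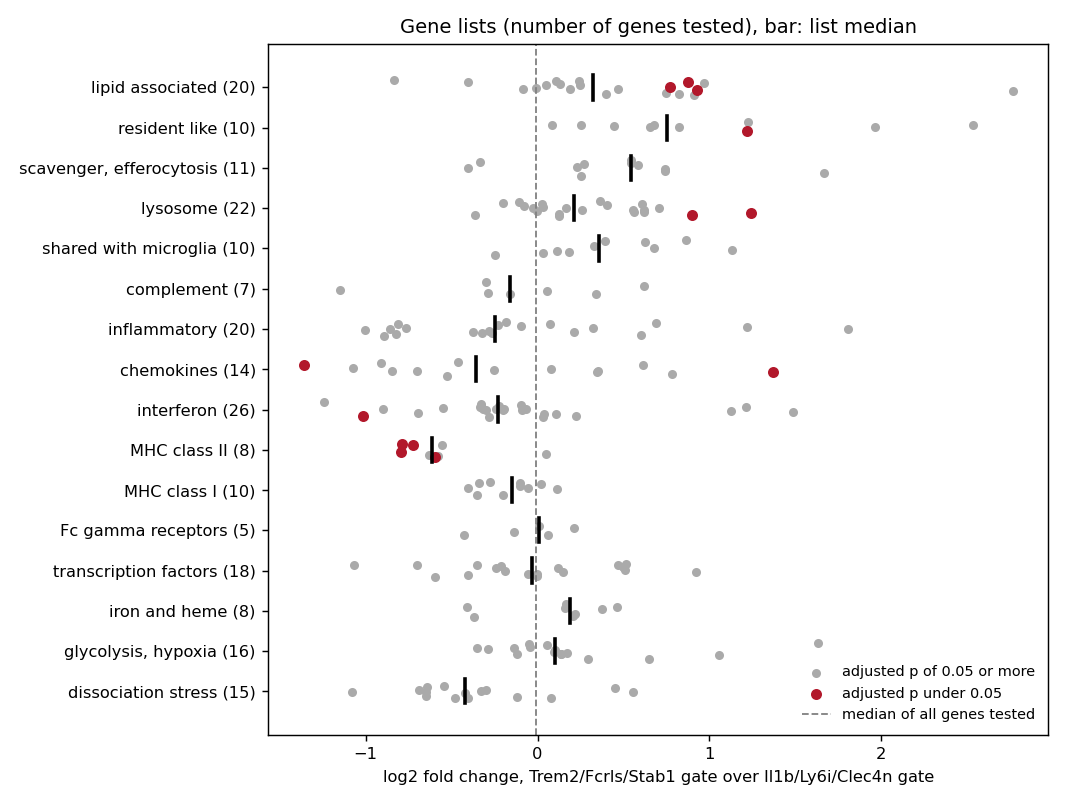
Log2 fold change of members over the reverse gate for the tested genes of 16 lists, 1 point per gene, red where the adjusted p was under 0.05 (edgeR). Black bars are list medians and the dashed line is the median of all 3125 genes, -0.01. The MHC class II list has a median of -0.62 and the resident list 0.75.

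In the other lists few or no genes passed. Of 26 interferon genes Ly6a was lower and 25 did not pass, with a median log2 difference of -0.23. Of 20 inflammatory genes, 11 scavenger and efferocytosis genes, 10 genes shared with microglia, 7 complement genes, 5 Fc gamma receptor genes, 8 iron and heme genes and 16 glycolysis and hypoxia genes, 0 passed in edgeR. The medians of these 7 lists were -0.25, 0.54, 0.36, -0.16, 0.01, 0.19 and 0.10 in that order. Cd68, a lysosomal glycoprotein of macrophages, had 513 and 778 CPM in members and 241 and 483 CPM in the reverse gate (adjusted p = 0.151, edgeR). Cx3cr1, the fractalkine receptor, had 525 and 389 CPM in members and 263 and 208 CPM in the reverse gate (adjusted p = 0.493, edgeR). Both had members above the reverse gate in both libraries without passing the test.

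Of 18 transcription factor genes 0 passed in edgeR, with Maf nearest at 426 and 556 CPM in members and 241 and 292 CPM in the reverse gate (log2 difference 0.93 ± 0.23, adjusted p = 0.0507). Maf encodes c-Maf, a factor of resident and C1q-expressing macrophages. Of 15 genes that respond to tissue dissociation 0 passed, and the median log2 difference was -0.42. By value 10 of them were lower in members in both libraries, against 789 of all 3125 genes. Junb had 310 and 361 CPM in members and 460.3 and 617 CPM in the reverse gate (adjusted p = 0.357, edgeR), and Fos 597 and 1056 CPM in members and 899 and 1553 CPM in the reverse gate (adjusted p = 0.498, edgeR). Both are immediate early genes, and the part of dissociation in the other differences was not tested.

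The levels were next read by the number of gate UMIs in a barcode, which the rule sets at 1. In replicate 1, 163 members had 1 UMI of Trem2, Fcrls and Stab1, 100 had 2 and 169 had 3 or more, and in replicate 2 these were 20, 8 and 4 members. Apoe stood at 14578 CPM with 1 UMI, 17358 CPM with 2 and 23084 CPM with 3 or more in replicate 1, and at 4531, 9392 and 16164 CPM in replicate 2. Just outside the rule, barcodes with 0 UMIs of either gene set had 12199.5 and 4420 CPM of Apoe. In replicate 2 members with 1 UMI stood close to the barcodes outside. Depth went with this order in replicate 1, where the median was 1043 UMIs per barcode with 1 gate UMI, 1407.5 with 2 and 1956 with 3 or more, and not in replicate 2, where it was 942.5, 1083.5 and 915.5 UMIs.

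Other genes varied less evenly along the same order. H2-Ab1 had 2803, 2950 and 1852 CPM with 1, 2 and 3 or more gate UMIs in replicate 1, so among members only the last group stood apart, and 3461 CPM in the barcodes outside. Ctsd had 790, 837 and 1123 CPM in the same groups, against 370 CPM outside. Pf4 had 498, 558 and 687 CPM, against 276 CPM outside. In replicate 2 Pf4 stood at 747 CPM with 1 gate UMI (427 to 1214) and at 863 CPM with 2 (394 to 1637). The 4 members with 3 or more stood at 2654 CPM (1325 to 4748), from 11 UMIs, and the barcodes outside at 370.4 CPM (282 to 478). The interval of these 4 lay above those of 1 gate UMI and of the barcodes outside, but overlapped that of 2 gate UMIs. Ctsd had 5 UMIs in these 4 members, and its interval overlapped those of the other groups.

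**Figure D5:**
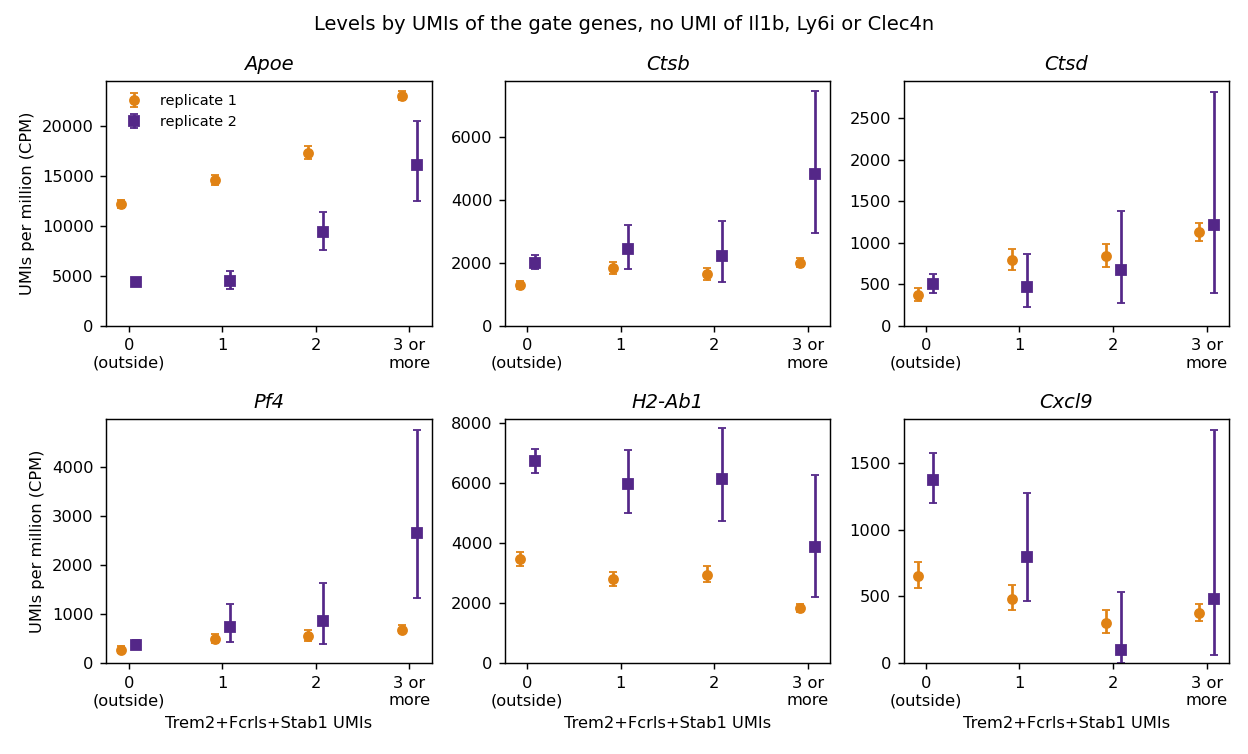
Levels in CPM of 6 genes in barcodes without UMIs of Il1b, Ly6i and Clec4n, by their number of Trem2, Fcrls and Stab1 UMIs, in replicate 1 (circles) and replicate 2 (squares) with exact Poisson 95% intervals. Barcodes with 0 such UMIs lie outside the rule. Apoe stood at 14578 CPM at 1 UMI and at 23084 CPM at 3 or more UMIs in replicate 1.

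Barcodes with UMIs of both gene sets did not fall evenly between the gates. Their Pf4 level was 806 and 1162 CPM, above members (608 and 1000.4 CPM) as well as the reverse gate in both libraries. The intervals of these barcodes and members did not overlap for Pf4 in replicate 1 (702 to 921 and 555 to 665 CPM), but did in replicate 2. Their Apoe level was 17586 and 6004 CPM, between the gates and nearer to members. Their Cxcl9 level was 522 and 1239 CPM and their Cd74 level 5059 and 7831 CPM, also between the gates in both libraries. In replicate 1 these barcodes had a median of 2144 UMIs, above members and the reverse gate, and 42.3% of them carried a dendritic marker UMI.

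Members of the 2 libraries also differed from each other. Of 858 genes with 100 or more UMIs over members of both, 152, or 17.7%, had Poisson intervals that did not overlap, 61 higher in replicate 1 and 91 higher in replicate 2. Of these 152 genes 141 differed to the same side in the reverse gate by value, a count that takes no account of size or counting error. Lyz2 had 7773 CPM in replicate 1 and 55.6 CPM in replicate 2, and Xist, transcribed from the inactive X chromosome of female cells, had 423 UMIs in replicate 1 and 0 in replicate 2. Ifitm1 (99.1 and 889 CPM), Plac8 (149.9 and 889 CPM) and Fcgr4 (171 and 778 CPM) led the genes higher in replicate 2. Sex and any other difference between the 2 libraries cannot be told apart from the library, and with 1 library on each side no test was made.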

How the data were processed

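Members and gene lists were chosen with earlier results of these data known. The deposited matrices hold raw UMI counts per gene and barcode, with no normalisation, made with Cell Ranger 6.0.1 per the file headers. The submitters' processing notes also name Seurat 4.0.1 and the build mm10, and the gene annotation is not given in the sources used here. Gene positions came from GENCODE M21 on mm10, which matched 32235 of 32285 genes. Counts were summed per library and gate, and 4 gates in 2 libraries gave 8 sums. These were tested with edgeR 4.0.16 (TMM scaling, filterByExpr, library as block, 3 residual degrees of freedom, R 4.3.3) and Benjamini-Hochberg adjustment, after the script was tested on simulated data. The simulation used the same spread for all genes and drew no gates from the counts, so it gives no support to the calls on those points. The gates were read from the same libraries, so the block pairs them by construction. Each SE given with edgeR was derived from the test, as the absolute log2 difference divided by the square root of the F statistic. DESeq2 1.42.0, other scaling, filters, gates and thinning to 800 UMIs were alternatives. Scrublet, through scanpy 1.11.5, called 10 and 36 barcodes doublets, 2 and 0 of them members. They were kept, since the rule keeps them, and left out in an alternative. Library totals were 5688000 and 5862342 UMIs. Genes named are the gate and marker genes, the called genes with the same direction in both libraries (at most 10 per direction by fold change, here extended by H2-Aa, which was named after its values were seen), those of smallest p in each list and the largest differences between libraries. Genes of other combinations or strata were chosen after values were seen. The values of 1 marker gene are not reported here.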

Additional observations from a re-analysis of the deposited data

How the results depend on the processing

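The main analysis called 8 genes higher and 11 lower. The fit with no replicate block called 0 and 0, DESeq2 called 3 and 4, no filter on low counts gave 1 and 0, and only the 2 gates in the fit gave 5 and 5. A gate at 2 UMIs gave 2 and 2, thinning after gating 4 and 7, 10 or more C1q UMIs 5 and 7, and leaving out barcodes with a dendritic marker UMI, an alternative chosen after seeing the data, 4 and 4. The stricter cell filter gave 13 and 10, RLE scaling 10 and 14, thinning before gating 7 and 9, and leaving out called doublets 8 and 11. All 19 called genes kept their direction in each alternative in which they were tested, within each library included. Napsa was not tested without the dendritic marker barcodes. The gate at 2 UMIs kept 4 of the 19 calls. The mean member share was 18.04% with a gate at 2 UMIs and between 26.5% and 32.97% in the other of these alternatives, and leaving out 1 replicate gave 6.43% to 54.1%. Gates drawn without 1 gate gene gave mean shares from 19.97%, with Trem2 left out, to 36.2%, with Clec4n left out. With 1 library left out no residual freedom remains, so those values carry no test. Among genes that did not pass, the log2 difference changed sign for Csf1r (-0.073 without the block, -0.0052 in DESeq2, -0.087 without a filter, -0.051 with the 2 gates alone). Without replicate 1 it was -0.72 for Csf1r and -0.054 for Adgre1, and without replicate 2 it was 0.49 for Csf1r and 1.03 for Adgre1. For Mrc1 the values were 1.53 without replicate 1 and -0.011 without replicate 2. The cause of these changes was not tested. In replicate 2 members a gene needs 83.4 CPM to reach 3 UMIs, and in the reverse gate of replicate 1 it needs 65.8 CPM, so lower levels could not be compared.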

Other observations

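Over all barcodes that passed the filters, Lyz2 had 18038 UMIs (3329 CPM) in replicate 1 and 49 UMIs (8.57 CPM) in replicate 2, whereas its near-identical paralog Lyz1 had 34 and 804 UMIs. The low Lyz2 level of members of replicate 2 was therefore shared by the whole library. Reads of the 2 genes can be split by the counting, but their sum also differed, at 18072 UMIs in replicate 1 and 853 UMIs in replicate 2. The labels do not give a strain or genotype for either library, and the cause was not tested.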
